A study of Bos taurus with 16 samples.

Results

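RAB proteins are small GTPases that mark the membranes of a cell and direct vesicles between them. A RAB is active in its GTP-bound form on a membrane and inactive in its GDP-bound form, in which a GDP dissociation inhibitor holds it in the cytosol. In macrophages the passage of a phagosome from early to late RAB proteins accompanies its fusion with lysosomes, in cytotoxic lymphocytes RAB27A is needed for release of granules, and in epithelia RAB13 and RAB25 act in traffic to cell junctions and to the apical membrane. The RAB genes were chosen as the probes whose gene name, or whose symbol in brackets in the description, was RAB followed by a number. The array held 48 such probes among its 21475 probes, and they represented 44 genes. Where a gene had 2 probes, as RAB11A, RAB3A, RAB6A and RAB7 did, the one that was brighter on average over the 16 columns of the deposited value table was used.

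The samples were CD14+ cells sorted from the endometrium and from the blood of the same 4 pregnant cows, which were on days 164 (animal 1), 239 (animal 2), 242 (animal 3) and 248 (animal 4) of pregnancy when the uterus and blood were collected at an abattoir. The labels state no treatment and no genotype, so the contrast was tissue within animal. Each animal was hybridized on 2 two-color Agilent bovine arrays as technical replicates, with the dyes exchanged between them in animals 1, 2 and 4 and not in animal 3. Levels are log2 normalized intensities, differences are log2 ratios of endometrium over blood within an animal, and a value near 6 lies at the background of the array.

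The label of the cells was checked with marker genes. CD14 itself was at 12.16 in endometrium and 14.24 in blood of animal 1, but between 6.41 and 8.14 in endometrium and between 6.30 and 7.63 in blood of animals 2 to 4. CD3E, a T-cell receptor subunit, was at 8.81 in endometrium and 7.19 in blood of animal 1, and between 11.26 and 13.42 in both tissues of the other 3. In animals 2 to 4, therefore, the defining marker of the sort was low and a marker of T cells was high, but some other markers of each list went the other way. In endometrium of these animals AIF1 was between 12.75 and 14.37, C1QB between 11.37 and 13.17 and CSF1R between 9.15 and 11.27, all genes of macrophages, while the T-cell gene CD5 was between 6.12 and 7.31 and CD3D was at 6.51 in animal 3. The summed intensity of the 12 monocyte and macrophage markers was 14270 to 181300 in endometrium. In blood this sum was 140330 in animal 1 and 6192.8 to 7429.3 in animals 2 to 4. It was higher in endometrium of every animal. The sum of the T and natural killer cell markers was 22487 to 97078 in endometrium. In blood that sum was 1321.2 in animal 1 and 15123 to 33905 in animals 2 to 4. Of the 9 markers of T and natural killer cells, 5 were at least 1 log2 unit lower in animal 1 than in every other animal in both tissues, while 7 of 12 monocyte and macrophage markers and 8 of 12 stromal markers were higher by as much. The summed intensity of 19 epithelial markers ranged from 19961 to 135570 in endometrium, with the highest value in animal 3, and from 2138 to 5231.6 in blood. All 19 were higher on average in endometrium, and none was below background on every channel of either tissue. The sum for 16 trophoblast markers was 15490 to 47913 in endometrium and 3153.8 to 9115.1 in blood, where 6 of them were well above background on no channel. The sum for 7 B-cell markers was 3447.5 to 17784 in endometrium. In blood it was 7401.2 in animal 1 and 16706 to 47824 in animals 2 to 4, with the highest value in animal 3. The part of these cells in any difference below was not tested. In sorted cells measured in bulk, fewer cells of a type and less RNA per cell cannot be told apart.

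Some members, such as RAB11A, turn on which transcript a probe reports, while the RAB13 and RAB18 probes matched their own genes in RefSeq. The first 30 bases of the 60-base probes of RAB13, RAB15, RAB18 and both RAB11A probes are shown as the scanner files give them, 5′ to 3′ and in lower case, since no base is singled out.
RAB13: aataccaccctctgaaggtttggtcctatg
RAB15: cgggtccagtagaggaattgtgagcagggt
RAB18: tgctatttgctccttgagccatagaatatt
RAB11A, brighter probe: cattgttgcccggatgcctcgtttctctcg
RAB11A, dimmer probe: tttgagtgctttggatgtagccatgaaata
No RAB probe shared a run of 20 bases with any other probe on the array. In RefSeq, 43 of the 48 probes matched a gene by accession or gene identifier, and a few matched another gene than the array named. The probes of RAB1B, RAB3C, RAB8A and RAB24 and the brighter RAB6A probe had no match. The accession of the brighter RAB11A probe is that of RAB11B and the dimmer one is that of RAB11A. The RAB1A probe belongs to RAB1B, the RAB3D probe to TMEM205, and the dimmer RAB7 probe to DAG1. RAB2, RAB7, RAB19B and RAB39 are older names of RAB2A, RAB7A, RAB19 and RAB39A, which are used here.

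Of the 44 RAB genes, 38 were tested, because they stood well above the array's background on 4 or more of the 8 channels of either tissue, and 24 were well above background in all 16 channels. RAB3B, RAB3D (the TMEM205 probe), RAB9B and RAB42 were well above background on no channel. RAB38, of lysosome-related organelles, was detected only in animal 1, at 8.97 in endometrium and 7.08 in blood. RAB3C, of secretory vesicles, was detected on 1 of 8 endometrial channels and on no blood channel, and was at least 1.02-fold higher in endometrium on that basis. Most members differed little between the tissues on average. Of the 38, 35 had a mean log2 ratio within 1 unit of 0, as did 84.2% of all 16653 probes tested. The median log2 ratio was −0.19 for the members and −0.02 for all probes, with endometrium the higher tissue for 15 members and blood for 23. The spread between animals was wide, with a median SD of the log2 ratio of 0.78 for the members and 0.68 for all probes. The 2 arrays of an animal differed in a member's ratio by a median of 0.08, less than the spread between animals.

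Genes were counted by a P and fold criterion, an unadjusted P no larger than 0.05 with a fold change above 2. These are the limits on P and fold change that the study used, without its further limit on the false discovery rate. By this criterion, RAB13 was higher in endometrium and RAB18 was higher in blood. That is 1 of 38 members, 2.63%, in each direction. Of all probes, 5.28% were past it with endometrium higher and 5.11% with blood higher. A count of 1 in each direction is too small to set these shares apart, and their difference was not tested. The dimmer RAB11A probe, which RefSeq also assigns to RAB11A, was past the criterion with blood higher. It was not counted, because the brighter probe stood for that gene. At an adjusted p of at most 0.05 with limma, 0 members were called, against 0.0661% of all probes, and 5 members had an unadjusted P of at most 0.05. In the methods' analysis of variance, 0 were called after adjustment and 2 had an unadjusted P of at most 0.05. The levels of the tissues did not overlap for 1 member with endometrium above blood, where 2.41% of all probes did so, and for 2 members with blood above endometrium, where 3.03% did.

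**Figure D1:**
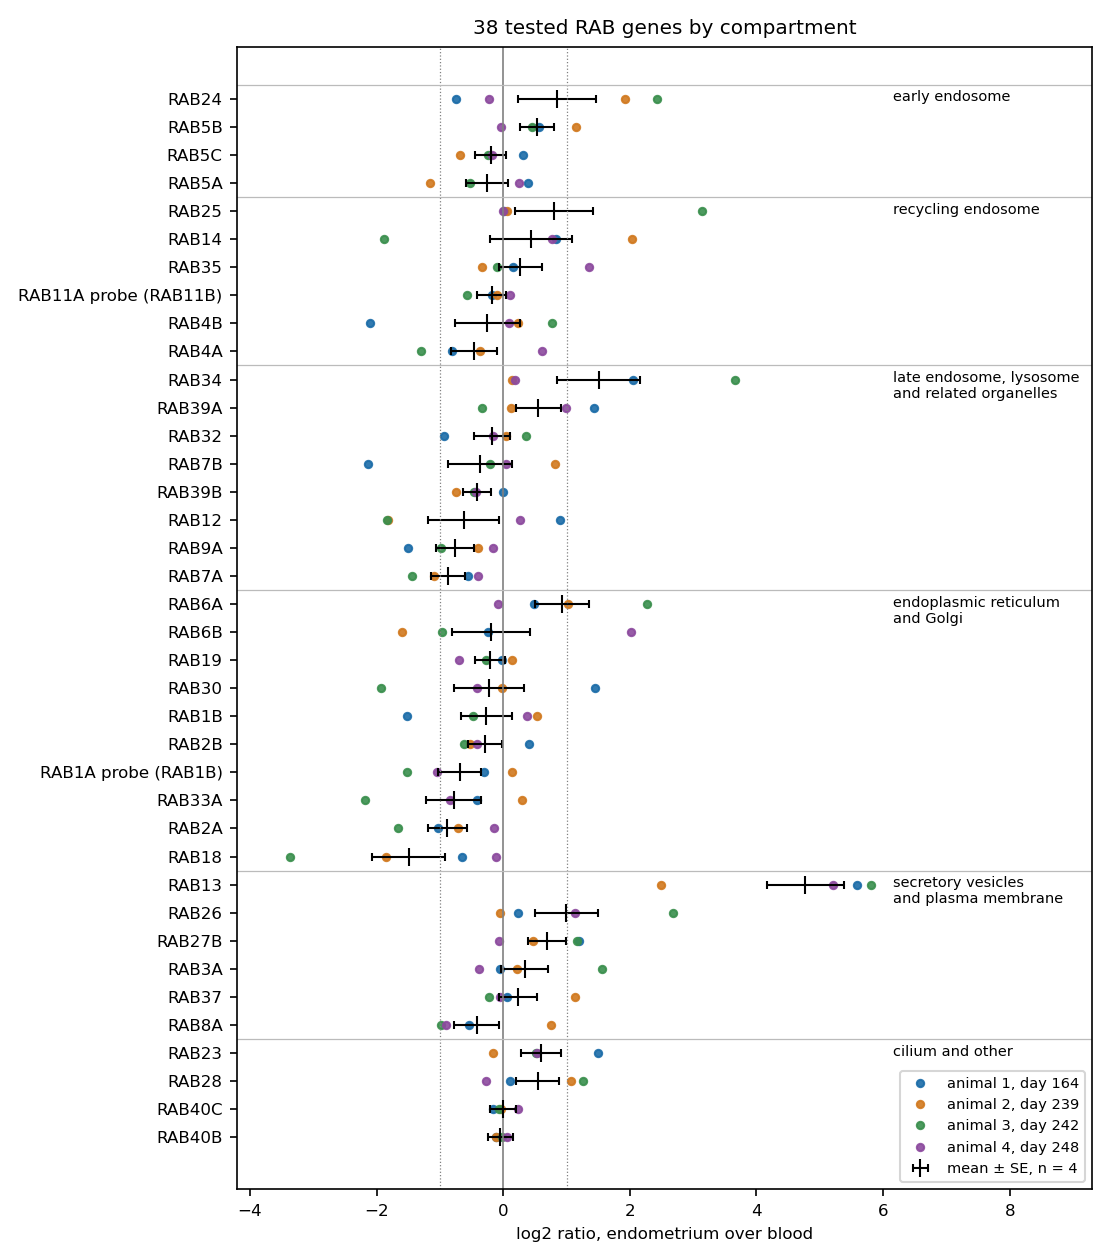
Log2 ratio of endometrium over blood (x axis) for the 38 tested RAB genes (y axis), grouped by compartment, with 1 colored point for each animal and a black bar for the mean ± SE of 4 animals; dotted lines mark a 2-fold difference. RAB13 lies apart at 4.77, with all 4 animals above 2.4, and the points of most other genes lie on both sides of 0.

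RAB13, which acts at tight junctions of epithelial cells and in traffic to the plasma membrane, was the member with the largest difference. Its levels in endometrium were 14.21, 11.16, 14.55 and 13.22 in animals 1 to 4, and its levels in blood were 8.62, 8.66, 8.75 and 8.02. Every endometrial sample was above every blood sample, and the blood samples were close to each other. The log2 ratio was 4.77 ± 0.61 (SE, n = 4), a 27.3-fold difference, with an adjusted p of 0.145 in limma. The ratio was 2.49 in animal 2 and 5.20 to 5.81 in the others, and without animal 2 it was 5.53. Technical replicate 1 alone gave 4.76 and technical replicate 2 alone 4.78. RAB13 passed the P and fold criterion under all 17 alternative settings, and its adjusted p in their tests ranged from 0.00163 to 0.556. The lowest came from the limma fit with a dye term. That fit took the 8 arrays as observations, with animal as a random block, although only 4 animals were sampled. In it 792 of 16653 probes were called after adjustment, against 11 in the main fit. In the deposited value table, whose low values are not compressed by an offset, the adjusted p was 0.0177, and RAB13 was the 1 member called there, against 1.35% of all probes. The summed intensity of the epithelial markers was also higher in the endometrium of every animal. The log2 ratios were 3.32, 3.22, 4.70 and 4.72 in animals 1 to 4. The endometrial sum was lowest in animal 2, as RAB13 was, but SERPINA14 was the brightest marker in it in animals 2 to 4. Single markers differed, and KRT7, KRT19, EPCAM, CLDN1, CLDN3, CLDN4 and ELF3 were lowest in endometrium of animal 2. KRT8, KRT18, CDH1, CLDN8, CGN, TJP3, ESRP1 and MUC1 were lowest in animal 4, and SERPINA14, S100G, CLDN7 and GRHL2 in animal 1. The sum was lowest in endometrium of animal 2 for 7 of the 9 marker lists. The trophoblast sum was also higher in endometrium of every animal, by 2.75, 0.76, 3.28 and 1.87, although it includes PAG1, which was higher in blood in all 4 animals. The sums of T and natural killer cells (4.09, 1.77, 1.79 and 0.26) and of monocytes and macrophages (0.37, 1.20, 2.98 and 2.92) were higher in endometrium too. The part of any of these cells in the RAB13 difference was not tested.

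RAB15, a regulator of endosomal recycling, was not among the 44 members because the array columns that the rule reads do not name it. Its brighter probe, named only by the array's own note of similarity to human RAB15, was at 10.16, 8.79, 13.29 and 10.65 in endometrium and at 7.75, 6.78, 9.79 and 7.30 in blood of animals 1 to 4. The tissues overlapped across animals, since blood of animal 3 was above endometrium of animal 2, but endometrium was higher within each animal. The log2 ratio was 2.82 ± 0.33, or 7.05-fold, with an adjusted p of 0.119 in limma, and it lay between 2.59 and 3.41 under the alternatives, all of which kept it past the P and fold criterion. The dimmer probe, the 1 that RefSeq assigns to RAB15, did not show the difference, with a log2 ratio of 0.18 ± 0.23 and levels of 6.12 to 6.86. Of 12 RAB genes found outside the rule, among them a further probe of RAB2A, RAB15 alone passed that criterion. Of all probes, 5.28% passed it with endometrium higher and 5.11% with blood higher.

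RAB34, RAB26 and RAB25 had positive mean ratios that rested on few animals, RAB34 on animals 1 and 3, RAB26 on animals 3 and 4, and RAB25 on animal 3. RAB34, which positions lysosomes near the Golgi, was at 8.84, 6.08, 11.53 and 6.32 in endometrium and at 6.79, 5.94, 7.87 and 6.13 in blood. RAB26, of secretory granules, was at 6.26, 5.93, 9.33 and 7.27 in endometrium and at 6.03, 5.98, 6.65 and 6.13 in blood. RAB25, of the apical recycling endosome of epithelia, was at 6.14, 6.12, 10.37 and 6.04 in endometrium and at 6.13, 6.05, 7.22 and 6.05 in blood. Each was highest in animal 3 in both tissues, and RAB25 was near background in the other 3 animals. The log2 ratios were 1.51 ± 0.66 for RAB34, 1.00 ± 0.50 for RAB26 and 0.80 ± 0.61 for RAB25, none past the P and fold criterion, and without animal 3 they were 0.79, 0.44 and 0.02. With the deposited value table RAB34 and RAB26 passed the criterion, with log2 ratios of 2.69 and 2.80, and adjusted p of 0.131 and 0.240. Animal 3 had the highest endometrial sum for 5 of the 9 marker lists, those of epithelium, trophoblast (47913), endothelium (7264.3), granulocytes (12945) and platelets (946.41), and the highest blood sum for epithelium and B cells. Both of its arrays carried endometrium in the same dye. The part of these cells or of the dye in these values was not tested.

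**Figure D2:**
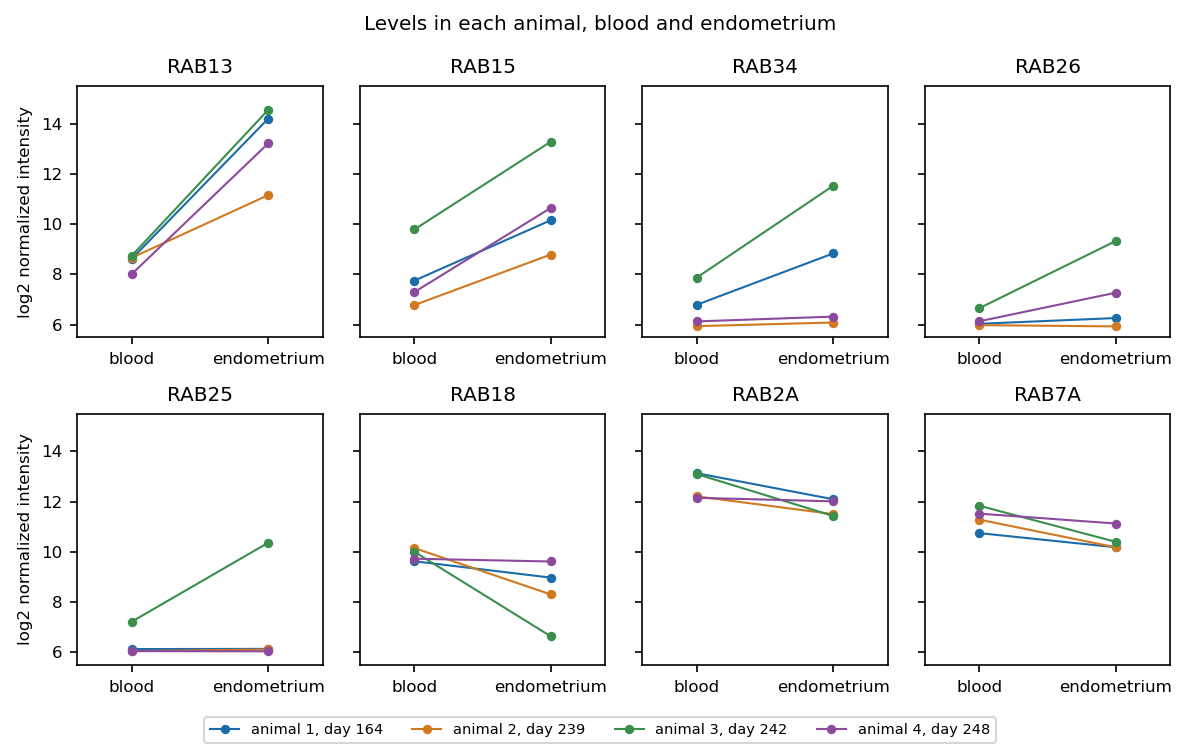
Log2 normalized intensity (y axis) of 8 RAB genes in blood and endometrium, with a line joining the tissues of each animal. RAB13 and RAB15 climb in every animal, RAB34, RAB26 and RAB25 are highest in animal 3 (11.53, 9.33 and 10.37 in endometrium), and RAB18, RAB2A and RAB7A slope down.

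RAB18, which acts at the endoplasmic reticulum and on lipid droplets, was the lowest member. In endometrium it was at 8.98, 8.31, 6.64 and 9.62 in animals 1 to 4, and in blood at 9.63, 10.15, 10.00 and 9.73. Blood was uniform and endometrium was not, and the highest endometrial value was just under the lowest blood value. The log2 ratio was −1.49 ± 0.57, 2.82-fold lower in endometrium, with an adjusted p of 0.316 in limma. The within-animal ratios ran from −3.37 in animal 3 to −0.11 in animal 4. It passed the P and fold criterion under 9 of 17 alternatives, not without animal 1 (−1.77), animal 2 (−1.38) or animal 3 (−0.87), with technical replicate 1 alone (−1.47), with the scanner's processed signal (−1.89), with loess and no quantiles (−1.37), without the filter on dim probes or in the methods' analysis of variance (both −1.49).

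Of the 10 RAB genes of the endoplasmic reticulum and Golgi that were tested, RAB18 included, 1 had a positive mean ratio, where 47.4% of all probes did, and the median of the 10 was −0.28. RAB18 was the 1 of them past the P and fold criterion. RAB2A, which acts between the Golgi and the endoplasmic reticulum, was at 12.10, 11.50, 11.43 and 12.01 in endometrium and at 13.13, 12.21, 13.10 and 12.15 in blood. Its tissues did not overlap, and its log2 ratio was −0.89 ± 0.31, with an adjusted p of 0.289. A further probe, named only by the array's note of similarity to human RAB2 and without a RefSeq match, did not show this, with within-animal ratios of 1.96, −1.70, 1.15 and −0.21 and a mean of 0.30 ± 0.63. The RAB1A probe, which is RAB1B in RefSeq and serves transport from the endoplasmic reticulum to the Golgi, had a ratio of −0.68 ± 0.34. RAB33A had −0.79 ± 0.44. RAB6A, of retrograde Golgi transport, was the 1 member of the group with a positive mean. It was at 13.30, 13.13, 13.41 and 12.13 in endometrium and at 12.82, 12.11, 11.14 and 12.21 in blood, with a ratio of 0.93 ± 0.42 and an adjusted p of 0.366. Its dimmer probe had a ratio of 0.60 ± 0.41.

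Late endosomal and lysosomal members gave 2 positive and 6 negative means of 8 tested, with a median of −0.39. RAB7A, which drives fusion of late endosomes and phagosomes with lysosomes, was at 10.18, 10.18, 10.40 and 11.13 in endometrium and at 10.75, 11.28, 11.84 and 11.52 in blood. It was higher in blood in all 4 animals, although endometrium of animal 4 was above blood of animal 1. The ratio was −0.87 ± 0.27, a 1.83-fold difference, with an adjusted p of 0.272, so it did not reach the fold change of the P and fold criterion. RAB9A, which serves return from late endosomes to the Golgi, was also higher in blood in all 4 animals, by within-animal ratios of −1.51, −0.40, −0.99 and −0.15, with a mean of −0.76 ± 0.30. RAB12 had a mean of −0.62 ± 0.56, and its within-animal ratios ran from −1.83 to 0.89. RAB39B was well above background on 2 of 8 endometrial and 6 of 8 blood channels, with a ratio of −0.41 ± 0.23. It was not past the P and fold criterion there but was in the deposited value table, with a ratio of −2.35 and an adjusted p of 0.209, and it was chosen for mention after its values were seen.

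None of the 4 early endosomal RAB genes tested passed the P and fold criterion. RAB5A, RAB5B and RAB5C, which govern entry into and fusion of early endosomes and young phagosomes, were well above background on all 16 channels. RAB5C was at 14.56, 13.71, 13.93 and 13.95 in endometrium and at 14.25, 14.39, 14.18 and 14.13 in blood, with a ratio of −0.20 ± 0.25. RAB5A had a ratio of −0.26 ± 0.33 and RAB5B one of 0.53 ± 0.27, with adjusted p of 0.751 and 0.395. RAB24, linked to autophagy, had a mean of 0.84 ± 0.62, with 2 animals higher in endometrium (1.92 and 2.43) and 2 higher in blood (−0.75 and −0.23). A mean that misses the threshold with 4 animals does not show that the tissues had equal levels.

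Of 6 recycling RAB genes tested, 3 had positive and 3 had negative means, and none passed the P and fold criterion. RAB4A, of rapid recycling, was at 6.85, 7.21, 6.14 and 8.26 in endometrium and between 7.44 and 7.65 in blood, with a ratio of −0.46 ± 0.36. RAB14, which links the Golgi and early endosomes, had within-animal ratios of 0.84, 2.03, −1.88 and 0.77, with a mean of 0.44 ± 0.64 that became −0.09 without animal 2. The 2 RAB11A probes differed. The paper's ontology lists place RAB11A among the genes higher in blood and do not say which probe. The brighter probe, RAB11B in RefSeq, had a ratio of −0.18 ± 0.22. The dimmer probe, RAB11A in RefSeq, was at 7.83, 8.12, 6.46 and 6.90 in endometrium and at 9.02, 8.91, 8.24 and 7.61 in blood. It was higher in blood in all 4 animals, with a ratio of −1.12 ± 0.27 that passed the P and fold criterion, and an adjusted p of 0.262.

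Among the secretory and plasma membrane members, 5 of 6 tested had a positive mean, with a median of 0.51 that included RAB13 and RAB26. RAB8A, of transport to the cell surface, was the exception with −0.42 ± 0.36, and RAB10, a close relative outside the rule, had −0.12 ± 0.27. RAB3A, of regulated secretion, was at 8.42 in endometrium of animal 3 and between 6.20 and 6.85 in the other 7 samples, with a ratio of 0.34 ± 0.37. Its dimmer probe had a ratio of −0.13 ± 0.21. With the deposited value table the dimmer probe's mean was more strongly negative, while the brighter probe's stayed positive. The paper's ontology lists place RAB3A among the genes higher in blood and do not say which probe. That is the direction of the dimmer probe and not of the brighter one. RAB27B, of granule and exosome release, had a ratio of 0.69 ± 0.30. RAB27A, outside the rule, was at 7.12, 10.19, 10.41 and 10.72 in endometrium and in blood at 9.97 in animal 1 and between 10.68 and 11.63 in the others, with a ratio of −1.21 ± 0.50 and an adjusted p of 0.340. The 4 members filed under cilia and other roles, RAB23, RAB28, RAB40B and RAB40C, had means between −0.05 and 0.60.

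The animals differed more than the tissues for some members. A member was counted when its level in animal 1 lay outside the levels of the other 3 animals by at least 1 log2 unit in both tissues and in the same direction. Animal 1 was above the others for RAB7B (1 of 38, against 3.21% of all probes) and below them for RAB19 and RAB27B (2 of 38, against 1.84%). RAB7B, a monocyte-enriched RAB of late endosomes, was at 8.19, 7.06, 6.24 and 6.26 in endometrium and at 10.32, 6.24, 6.46 and 6.22 in blood. It was near background outside animal 1, apart from endometrium of animal 2. RAB32, of lysosome-related organelles and phagosomes, was not counted, because its gap in endometrium was under 1 log2 unit. It was at 7.80 in endometrium and 8.73 in blood of animal 1, and between 6.43 and 6.90 in the other samples. RAB27B was at 8.63 in endometrium and 7.44 in blood of animal 1, and between 10.33 and 11.50 elsewhere. RAB19 was at 6.02 and 6.04 in animal 1, and between 7.32 and 10.01 elsewhere. RAB31, outside the rule for members and acting between the Golgi and endosomes, was at 11.98, 9.12, 12.58 and 9.89 in endometrium and at 11.78, 8.58, 9.67 and 8.99 in blood. It did not meet the animal 1 limit either, since animal 3 was the highest in endometrium. Animal 1 was the animal with high CD14 and low CD3E, and it was also the earliest in pregnancy, and these cannot be told apart. Endometrium of animal 3 held the lowest endometrial level for 13 of 38 members, 34.2%, among them RAB1B, RAB2A, RAB4A, RAB12, RAB14 and RAB18, where 30.7% of all probes were lowest there.

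**Figure D3:**
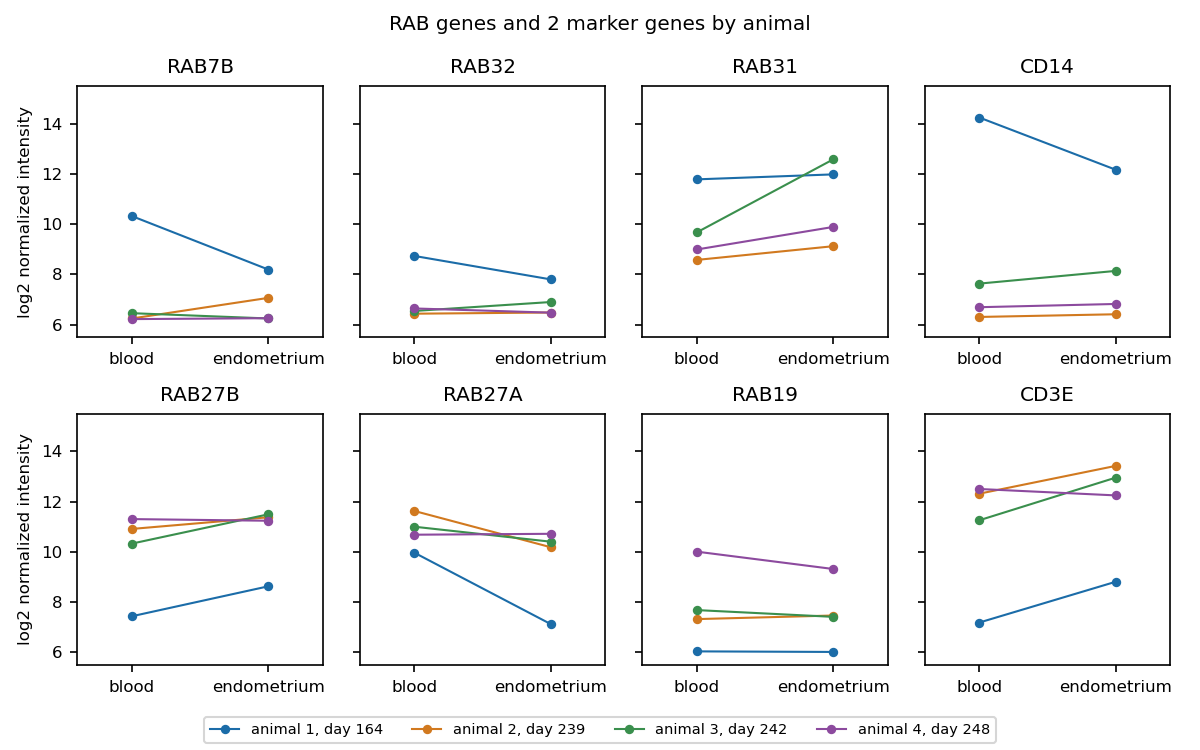
Log2 normalized intensity (y axis) in blood and endometrium of each animal for 6 RAB genes and for CD14 and CD3E. Animal 1 is the high line for RAB7B, RAB32 and CD14 (14.24 in blood) and the low line for RAB27B, RAB19 and CD3E (7.19 in blood).

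The machinery that loads, activates and reads RAB proteins was described from a list of 154 genes, of which 128 were tested. By the P and fold criterion 9 genes were higher in endometrium and 8 in blood, 7.03% and 6.25% of those tested, against 5.28% and 5.11% of all probes. The lowest adjusted p was 0.198 in limma, so 0 genes were called after adjustment, and 22 had an unadjusted P of at most 0.05. In the methods' analysis of variance 0 were called after adjustment and 12 had such a P. Leaving out animals changed the counts, to 6 and 4 without animal 2, to 5 and 4 without animal 3, and to 8 and 12 without animal 4. Plain subtraction of the background gave 9 and 15 and 10 and 15 came from the deposited value table, so the split by direction depended on the scale. The median log2 ratio of the list was −0.01.

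GDI2, which extracts inactive RAB proteins from membranes, did not pass. It was between 12.91 and 13.68 in all 8 animal and tissue means, with a ratio of 0.15 ± 0.22. CHM, the escort protein that presents RAB proteins for prenylation, had a ratio of −0.49 ± 0.32 and did not pass. RABIF, a chaperone of nucleotide-free RAB proteins, was at 7.00, 7.62, 6.51 and 6.77 in endometrium and at 7.46, 9.44, 8.23 and 8.44 in blood, with a ratio of −1.42 ± 0.31 that passed the P and fold criterion.

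Exchange factors divided evenly, 3 and 3 of 32. RABGEF1, the exchange factor of RAB5 also called Rabex-5, was at 8.42, 8.89, 8.28 and 10.67 in endometrium and at 11.23, 10.92, 11.40 and 10.82 in blood. The groups did not overlap, and animal 4 had almost no difference within it. The ratio was −2.03 ± 0.53, 4.07-fold lower in endometrium, with an adjusted p of 0.262. DENND4A, which activates RAB10, and DENND2D, which acts on RAB9, had ratios of −1.41 ± 0.39 and −1.33 ± 0.43. TRAPPC4 and TRAPPC3, subunits of the TRAPP complex that activates RAB1, had ratios of 1.37 ± 0.45 and 1.05 ± 0.41, with values near 0 in animal 1 (−0.10 and 0.06), and SBF2 had 1.26 ± 0.39.

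GTPase-activating proteins, which turn RAB proteins off, gave 2 and 2 of 32. TBC1D12 had a ratio of 1.90 ± 0.46 and RABGAP1 one of 1.32 ± 0.34, while TBC1D1, a regulator of glucose transporter traffic, had −1.52 ± 0.47 and TBC1D8 had −1.43 ± 0.52. RABGAP1 was higher in endometrium in all 4 animals, by 0.34 to 2.11.

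Effectors, which carry out what a RAB directs, gave 4 and 2 of 56. RILPL1, an effector of RAB8 and RAB10 at the centrosome, was at 10.51, 12.63, 11.79 and 9.70 in endometrium and at 7.23, 9.26, 8.66 and 8.46 in blood. Endometrium was above blood in every sample pair and across animals, and the ratio was 2.76 ± 0.42, 6.76-fold, with an adjusted p of 0.198. MLPH, which ties RAB27A to myosin on melanosomes, had 1.32 ± 0.49, with the highest value, 10.03, in endometrium of animal 3. OSBPL1A, a RAB7 effector, had 1.25 ± 0.30, and VPS33A, a subunit of late endosomal tethering complexes, had 1.09 ± 0.25. SYTL1, a RAB27A effector in granule exocytosis, was at 7.50, 10.04, 7.96 and 11.19 in endometrium and at 10.13, 10.62, 11.67 and 11.92 in blood, with a ratio of −1.91 ± 0.60. RAB11FIP1, an effector of RAB11 and RAB25 in recycling, had −1.34 ± 0.42, with no difference beyond 0.03 in animal 4.

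**Figure D4:**
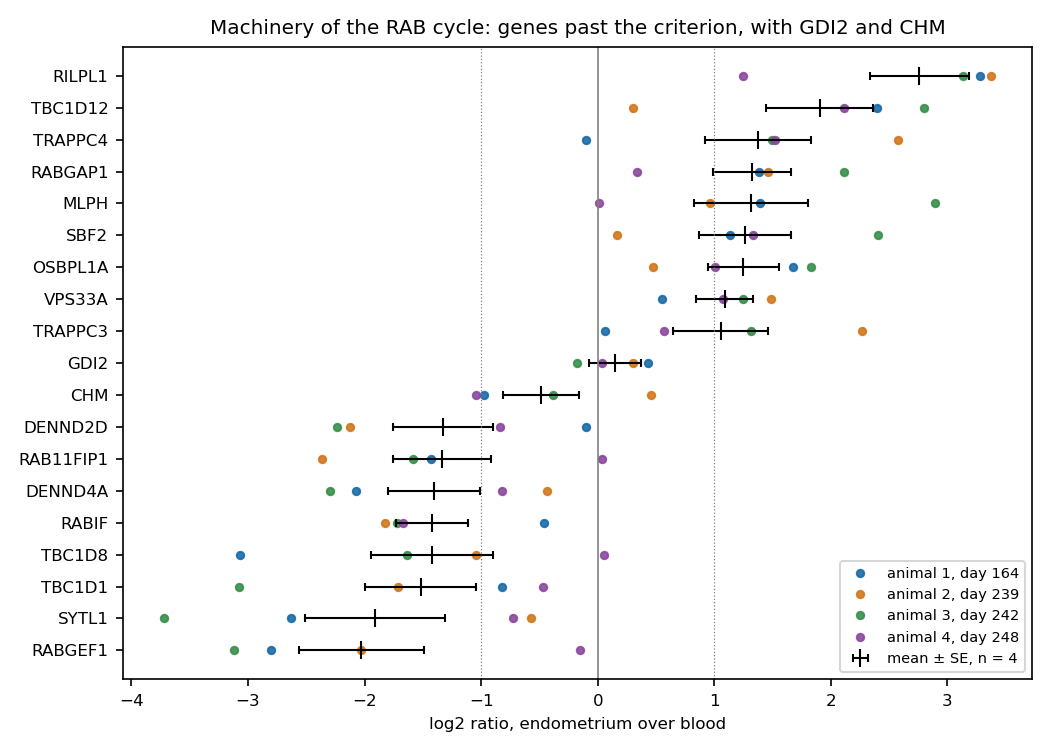
Log2 ratio of endometrium over blood (x axis) for the 17 machinery genes past the P and fold criterion and for GDI2 and CHM, with 1 colored point for each animal and the mean ± SE of 4 animals in black. RILPL1 is the highest at 2.76 and RABGEF1 the lowest at −2.03. For RABGEF1, TBC1D1, TBC1D8 and RAB11FIP1 animal 4 (purple) lies nearest to 0.

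The direction of the named RAB genes was then compared across the settings. Most of them kept their sign under every alternative, as the plot of settings shows. Among these, RAB13, RAB15 and RAB34 stayed positive and RAB18, RAB2A, RAB7A, RAB9A and RAB27A negative. Others kept their sign only narrowly, such as RAB25, which fell to 0.02, and RAB5C, which rose to −0.04. RAB5A, RAB14, RAB32, RAB3A and RAB10 changed sign when 1 animal was left out, and all 5 had means within 0.45 of 0.

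**Figure D5:**
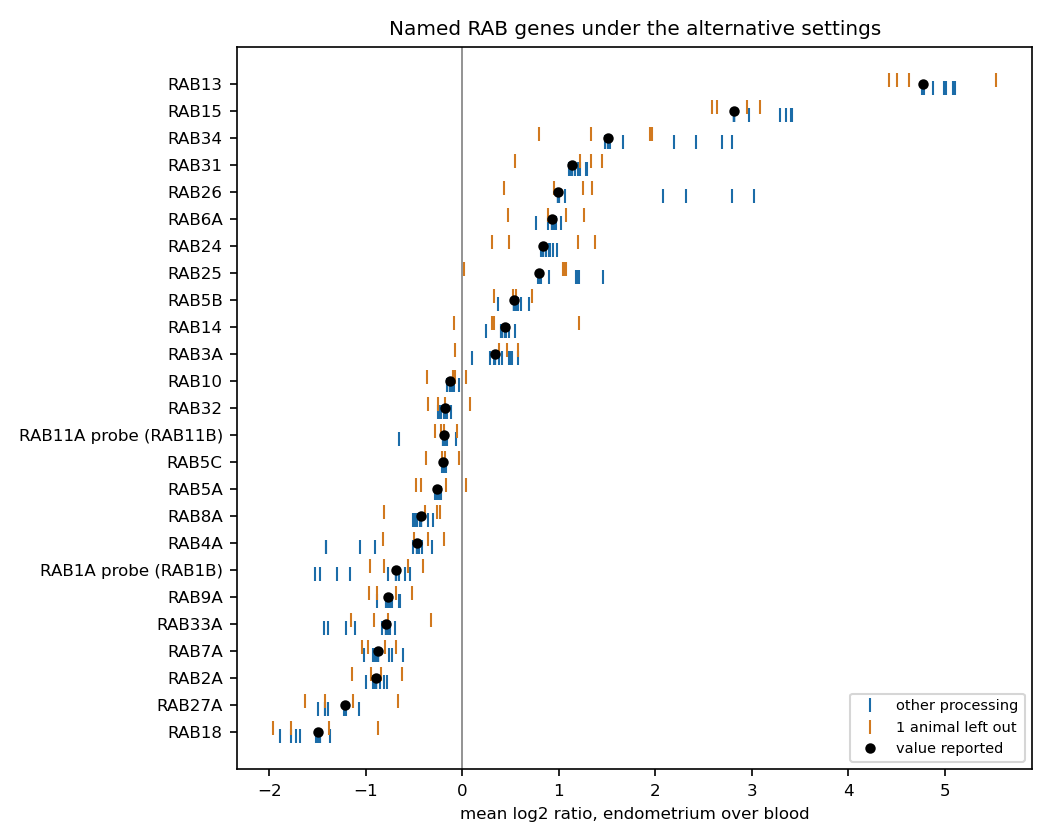
Mean log2 ratio of endometrium over blood (x axis) of the named RAB genes as reported (black points), under other processing (blue ticks) and with 1 animal left out (orange ticks). RAB13 stays between 4.43 and 5.53 and RAB18 between −1.95 and −0.87, while RAB26 spreads up to 3.02 with other background corrections or signals.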

How the data were processed

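RNA of CD14+ cells from endometrium and blood of 4 cows was measured on 8 two-color arrays, giving 16 channels. The authors deposited scanner files with the median intensity of each spot and of its local background, not normalized, as written by Feature Extraction, and a value table on the log2 scale, normalized by them with lowess within arrays and quantiles over channels. Each column of that table matched by rank the processed signal of the labeled dye in 1 scanner file. Put in the order of those ranks, the column's values gave its probe means within 0.001 log2 units. GEO attaches that file to the animal's other technical replicate, and files were read by that match. The within-animal ratios of different animals correlated with Pearson's r of 0.19 to 0.45 across probes, which are not independent replicates, and none was negative.

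Intensities were corrected with limma 3.58.1 in R 4.3.3 by normexp with an offset of 50, which compresses low values, then by loess and quantiles, with control spots and 3 to 20 outlier spots per array left out. On each channel 65.2% to 82.9% of spots exceeded background clearly. Saturation did not occur, and the 4 animals limit precision. An exact test exchanging tissues within 4 animals cannot go below p = 0.125, so limma's lmFit and eBayes tested the log2 ratio against 0 over 16653 probes, with Benjamini-Hochberg adjustment, and were checked on simulated data. SEs are limma's. The labels pair the tissues by animal, and deviations of the paired tissues from tissue means correlated with r of 0.62, 0.36, 0.21 and 0.46.

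Named genes were the members past the P and fold criterion, the 5 highest and 5 lowest, a list of RAB genes of known roles that includes those the paper lists from these arrays, and machinery genes past the criterion with GDI2, CHM, RABGEF1 and RAB11FIP1. RAB20 was on that list and not among the named probes, and 1 machinery gene on it is not reported here. The members, lists and tests were chosen with earlier results of these data known. Probe names were checked against RefSeq genes of assembly ARS-UCD2.0. The alternatives changed background correction, signal, normalization, dim-probe filter, pairing, technical replicate, dye, animals, test and choice of probe.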

Additional observations from a re-analysis of the deposited data

Results flagged for a closer look

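The log2 ratio of RAB25 in animal 3 was 3.14, far from the other 3 animals, in which it was between −0.01 and 0.07. The gap was 0.977 of the whole range, above the critical value of Dixon's test for 4 values. RAB25 was at 10.37 in endometrium and 7.22 in blood of animal 3, and near background in all other samples, and the animal's summed epithelial markers were the highest of the 4 in both tissues, at 135570 and 5231.6. Its endometrial sums were the highest for 5 of the 9 marker lists, and the part of these cells in the RAB25 value was not tested. Of the 25 named RAB genes tested in this way, RAB25 was the 1 that stood out, and chance alone gives about 1 in 20.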

How the results depend on the processing

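With an offset of 0, with plain background subtraction and with the deposited value table, 3 members were higher in endometrium (RAB13, RAB26 and RAB34) and 2 in blood (RAB18 and RAB39B) by the P and fold criterion. The processed signal gave 3 and 1 (RAB39B, not RAB18), and the dye term with animal as a random block gave 3 and 1 (RAB18). Loess without quantiles, no filter on dim probes and the methods' analysis of variance each gave 1 in endometrium and 0 in blood. At an adjusted p of at most 0.05, 1 member, RAB13, was called with an offset of 0, background subtraction, the processed signal, the value table, the stricter filter on dim probes and the dye term. The fit with the dye term took the 2 arrays of an animal as separate observations, and 792 of all probes were called in it. The median log2 ratio of the members was −0.029 without the dim filter. The median of all probes was −0.14 in the value table, against −0.02, and that of the members −0.21. Without the animal block (no pairing), 1 member was past the criterion in each direction, 0 were called after adjustment, and the machinery gave 5 in endometrium. The machinery gave 14 in blood with an offset of 0, 15 with background subtraction and with the value table, and 13 with the processed signal, and 5 and 1 in the methods' analysis of variance.

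With 1 animal left out, the members past the criterion numbered 1 to 3 in endometrium and 0 to 3 in blood, none was called after adjustment, and their median ranged from −0.17 (without animal 4) to 0.060 (without animal 1). The machinery then gave 5 to 8 in endometrium and 4 to 12 in blood. The cause of these changes was not tested. Precision is limited by 4 animals, and genes near background have ratios that depend on the offset.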
